A study of Homo sapiens with 34 samples.

Results

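TMEM45B (ENSG00000151715), HTATIP2 (ENSG00000109854) and CYB5R2 (ENSG00000166394) are 3 genes that were at 1.24 RPKM or lower (reads per kilobase of gene and per M reads of the library, where M is mega) in every RNA-seq library of androgen-dependent LNCaP cells and higher in their androgen-independent derivative. They were chosen from the RNA-seq values of untreated and mock-transfected cells, so the difference between the cell states in those 2 experiments is a description here and carries no test. They are 3 of the 28071 genes listed by RNA-seq. LNCaP is an established human prostate cancer cell line. The androgen-dependent cells (AD) were grown in RPMI1640, and the androgen-independent cells (AI) in medium with charcoal-stripped serum, which holds little steroid. RNA-seq covered AD and AI cells in 3 states, which were untreated, 24 h after a mock siRNA and 24 h after an siRNA against EZH2 (siEZH2), with 2 libraries each. RNA immunoprecipitation (RIP) with an antibody to EZH2 or with control IgG gave 2 libraries for each antibody and cell state. Peak lists of chromatin immunoprecipitation (ChIP) numbered 7: 2 of AD and 2 of AI for H3K27me3, and 2 of AD and 1 of AI for EZH2. The labels describe the transfected cells as LNCaP/abl, an androgen-independent line, although some transfected libraries are titled AD. The titles were followed, and since nothing in the labels tells whether replicates are separate cultures, p-values measure only how these samples spread, and that spread may be technical.

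EZH2 is the catalytic subunit of Polycomb repressive complex 2 and methylates histone H3 at lysine 27, a mark (H3K27me3) found on silenced genes. HTATIP2, also called TIP30 or CC3, is an oxidoreductase-like protein reported as a metastasis suppressor, and its promoter has been reported as methylated in several cancers. CYB5R2 belongs to the NADH-cytochrome b5 reductases, which pass electrons from NADH to cytochrome b5, and it too has been described as methylated in tumours. TMEM45B encodes a multi-pass membrane protein whose function is little known.

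All 3 genes lie on chromosome 11, far apart. TMEM45B spans chr11:129815848-129860003 (44156 bases), HTATIP2 spans chr11:20363714-20383782 on the plus strand (20069 bases) and CYB5R2 spans chr11:7665095-7674267 on the minus strand (9173 bases), all in RefSeq GRCh38.p14. The 250 bases before the gene start are shown for HTATIP2 (chr11:20363464-20363713, plus strand) and for the outermost start of CYB5R2 (chr11:7674268-7674517, minus strand), because promoter methylation of both genes has been reported. An H3K27me3 peak of the second AI list, described further on, overlaps the CYB5R2 window, and no peak overlaps that of HTATIP2. The printed windows come from RefSeq, run 5′ to 3′, and have each CG dinucleotide, the site of DNA methylation, in capitals.
HTATIP2: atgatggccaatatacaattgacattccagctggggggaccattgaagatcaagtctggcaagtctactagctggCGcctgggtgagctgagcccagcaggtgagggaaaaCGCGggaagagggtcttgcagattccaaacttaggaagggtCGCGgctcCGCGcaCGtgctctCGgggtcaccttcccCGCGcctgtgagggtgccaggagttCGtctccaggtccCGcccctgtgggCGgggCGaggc
CYB5R2: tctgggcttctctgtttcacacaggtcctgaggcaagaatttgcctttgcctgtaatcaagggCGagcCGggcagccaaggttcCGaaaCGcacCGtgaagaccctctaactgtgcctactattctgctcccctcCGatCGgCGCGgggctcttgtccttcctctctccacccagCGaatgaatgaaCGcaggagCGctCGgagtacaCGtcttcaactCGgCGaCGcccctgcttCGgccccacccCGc
The HTATIP2 window holds 15 CG, more than 57.2% of the 34943 RefSeq promoter windows of that length, whose median is 11. The CYB5R2 window holds 19 CG, more than 65.4% of them. At least 1 CG is present in 93.9% of all windows. CYB5R2 has 2 further annotated starts inside the gene: the window before one (chr11:7673501-7673750) holds 32 CG, and that before the other (chr11:7672892-7673141) holds 4 CG. DNA methylation was not measured in these samples.

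The checks on the libraries come first. EZH2, the siRNA target, was at 7.07 and 5.44 RPKM in mock AI cells and at 3.60 and 4.33 after siEZH2. The difference was -0.59 on the log2(RPKM + 0.5) scale with an adjusted p of 0.126 (limma), so it did not pass the threshold of 0.05. In AD cells EZH2 was at 10.95 and 12.48 RPKM after mock and 11.52 and 10.73 after siEZH2 (-0.07, adjusted p = 1), and no reduction was detectable. Luminal prostate markers listed for this check, with KLK3, KRT8 and KRT18 among them, were all present, and their summed level was 3321 to 7002 RPKM in the 6 AD libraries and 2656 to 3795 in the 6 AI libraries. Basal markers summed to 0.37 to 4.64 RPKM in AD and 0.22 to 1.25 in AI, neuroendocrine markers to 32.7 to 51.6 and 7.35 to 42.4, and blood, endothelial or stromal markers to 3.35 to 5.99 and 1.59 to 3.66. KRT5 was at 0 in every AD library, and TP63, INSM1, CD68 and PECAM1 were at 0 in every AI library. The part of these differences in the results below was not tested. Mitochondrially encoded genes took 18.4% to 33.5% of the summed RPKM in untreated libraries and 2.1% to 4.07% in transfected ones. Depth, estimated from the steps between low values, was 17.4 to 57.9 M reads in untreated and 7.51 to 12.6 M in transfected libraries. Transfection, depth and mitochondrial share therefore cannot be told apart when untreated and transfected cells are set side by side.

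In untreated cells TMEM45B was the highest of the 3. It was at 1.24 and 0.76 RPKM in AD and at 103.92 and 56.83 in AI. HTATIP2 was listed at 0 in each AD library and stood at 8.37 and 6.49 RPKM in AI. CYB5R2 was at 0.09 and 0.07 RPKM in AD and at 0.64 and 0.37 in AI, so in untreated AI cells it stayed below the level of TMEM45B in untreated AD cells, and a description of it as switched on there does not hold beyond this low level. AI lay above AD in both libraries for all 3 genes, as it did for 37.6% of all genes tested, which fulfils the choice of the genes and is no separate finding.

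After mock siRNA HTATIP2 lay close to TMEM45B in AI cells. TMEM45B was at 0.17 and 0.73 RPKM in AD and at 23.34 and 23.35 in AI, below both untreated AI libraries. HTATIP2 was at 0 and 0.15 RPKM in AD and at 20.44 and 24.07 in AI, above both untreated AI libraries. CYB5R2 was at 0.22 and 0.09 RPKM in AD and at 9.31 and 10.62 in AI, again above both untreated AI libraries. The 3 genes therefore did not share one pattern among AI cells: TMEM45B was highest untreated, while HTATIP2 and CYB5R2 were highest after transfection. AI lay above AD in both libraries for all 3 genes, against 22.7% of all genes tested, which again fulfils the choice of the genes.

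On the log2(RPKM + 0.5) scale, AI minus AD in untreated cells was 5.71 (SE 0.352) for TMEM45B, the largest of 14227 genes tested. The same difference was 3.98 (SE 0.178) for HTATIP2, rank 6, and 0.78 (SE 0.218) for CYB5R2, rank 1774. After mock siRNA the differences were 4.72 for TMEM45B, 5.31 for HTATIP2 and 4.00 for CYB5R2, which are ranks 3, 2 and 5. HTATIP2 was listed at 0 in untreated AD, so its value is set by the added 0.5 and is not a fold change. It was 6.22 with 0.1 added and 3.07 with 1 added.

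The plot of RPKM by library shows these levels.

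**Figure D1:**
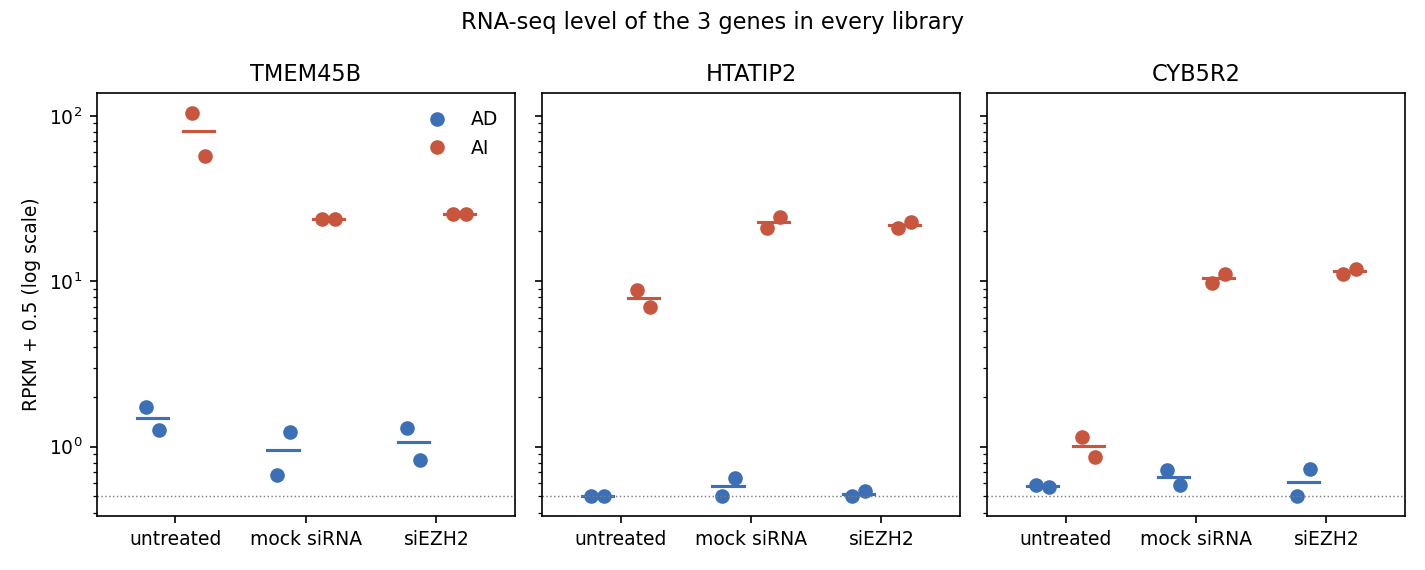
RNA-seq level (RPKM + 0.5, log axis) of TMEM45B, HTATIP2 and CYB5R2 in every library; points are libraries, horizontal lines the group means of 2 libraries, and the dotted line marks 0 RPKM. AD points are at 1.24 RPKM or lower in every panel, and CYB5R2 in untreated AI cells reaches only 0.37 and 0.64 RPKM against 9.31 to 11.41 in transfected AI cells.

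The siEZH2 libraries were not used to choose the genes, although they come from the same transfection experiment as the mock libraries. Their spread was estimated jointly with the libraries that chose the genes, so the test below is not fully independent of the choice. HTATIP2 and CYB5R2 reached at most 0.15 and 0.23 RPKM in AD RNA-seq libraries. Both passed the filter of 0.5 RPKM in 2 or more libraries only through AI. In the siEZH2 libraries all 3 genes were higher in AI, and they ranked 2 to 4 by size of increase among 14227 genes. HTATIP2 was at 0 and 0.04 RPKM in AD and 20.44 and 22.41 in AI. TMEM45B was at 0.80 and 0.33 RPKM in AD and 25.07 and 24.99 in AI. CYB5R2 was at 0 and 0.23 RPKM in AD and 10.56 and 11.41 in AI. For each gene both AI libraries lay above both AD libraries, and the lowest AI value was over 10 RPKM while the highest AD value was under 1 RPKM.

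Group means were 0.02 ± 0.028 against 21.43 ± 1.39 RPKM for HTATIP2, 0.565 ± 0.332 against 25.03 ± 0.057 for TMEM45B and 0.115 ± 0.163 against 10.98 ± 0.60 for CYB5R2 (AD against AI, SD, n = 2). HTATIP2 rose by 5.40 (SE 0.178, adjusted p = 8.59e-08, limma), on the log2(RPKM + 0.5) scale. TMEM45B rose by 4.62 (SE 0.352, adjusted p = 5.90e-06) and CYB5R2 by 4.25 (SE 0.218, adjusted p = 7.48e-07) on the same scale. All 3 were called higher, against 10.6% of all genes (1508 called higher), and 47.1% (6698) were called lower. HTATIP2 and CYB5R2 passed the filter only through AI, and the siEZH2 values of all 3 lay near the mock values that chose them. The calls for the 3 genes, here and under the alternatives below, are therefore a description and not separate support. Both AI libraries lay above both AD libraries for 20.0% of all genes. The median of all genes was -0.48 in this comparison, 0 after quantile normalization and -0.03 after median ratio scaling. With those scalings the calls were 3166 higher and 3519 lower, and 3510 higher and 3930 lower, so the excess of lower calls in the deposited values depends on their scaling. The 3 genes were called higher under each of the 13 alternatives run. Values ranged from 4.46 to 7.51 for HTATIP2, 4.07 to 5.34 for TMEM45B and 3.43 to 5.93 for CYB5R2, with adjusted p of at most 1.75e-05, 0.000132 and 6.76e-05.

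**Figure D2:**
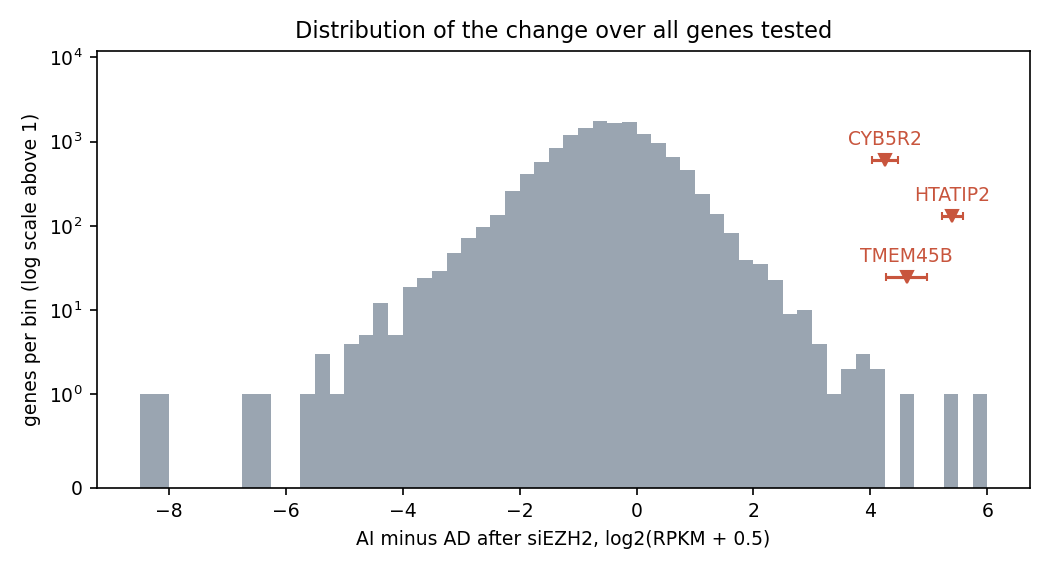
Number of genes (log axis above 1) by AI minus AD after siEZH2 on the log2(RPKM + 0.5) scale, over 14227 genes; triangles mark the 3 genes with bars of 1 SE, at heights chosen for legibility. HTATIP2 (5.40), TMEM45B (4.62) and CYB5R2 (4.25) lie at the right end, where the histogram holds few genes.

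None of the 3 genes passed the test of siEZH2 against mock in either cell state. The mock libraries also entered the choice of the genes, so this comparison is not independent of it. In AI cells siEZH2 minus mock was 0.10 for TMEM45B (95% interval -0.69 to 0.89, adjusted p = 0.932, limma). It was -0.05 for HTATIP2 (-0.45 to 0.35, adjusted p = 0.931) and 0.14 for CYB5R2 (-0.35 to 0.63, adjusted p = 0.812). None of the 3 was called, where 1.46% of all genes were (10 higher and 198 lower). That count for all genes was 0 without any one of the 4 libraries, 43 after quantile normalization (14 higher, 29 lower) and 27 after median ratio scaling (6 higher, 21 lower). In AD cells the differences were 0.19 for TMEM45B (-0.60 to 0.98), -0.13 for HTATIP2 (-0.53 to 0.27) and -0.11 for CYB5R2 (-0.60 to 0.38), each with an adjusted p of 1. Of all genes, 0.0141% were called there. The intervals leave room for changes of up to about those bounds, and EZH2 RNA itself did not fall past the threshold. The siEZH2 effect in AI minus that in AD was -0.10, 0.08 and 0.25 for TMEM45B, HTATIP2 and CYB5R2, with adjusted p of 1, 0.992 and 0.96. No gene was called in that comparison by limma (0.0%), while 976 had an unadjusted p under 0.05.

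Genes of related function were examined from 4 lists. Beside CYB5R2, a list of 8 genes of the cytochrome b5 system was examined, of which 6 were tested in siEZH2 cells. Of these, 1 was called higher in AI and 2 lower, against 10.6% and 47.1% of all genes, with a median of -0.20 against -0.48 for all genes. The counts were 1 and 1 after quantile normalization and 2 and 0 after median ratio scaling, where CYB5B was called higher (0.33, adjusted p = 0.0197). All genes were called higher and lower in 22.3% and 24.8% of cases with the first scaling and in 24.9% and 27.9% with the second. CYB5A, the electron acceptor of the reductases, stood at 69.87 and 75.09 RPKM in AD and 163.31 and 179.90 in AI (1.24, adjusted p = 7.93e-05). CYB5R1, another reductase of the family, fell by 1.02 (adjusted p = 0.00305), but its adjusted p was 0.0902 after median ratio scaling. CYB5D2, a cytochrome b5 domain protein, fell by 1.17 (adjusted p = 0.00297), with 0.0638 after quantile normalization and 0.0536 after median ratio scaling. CYB5R3, the best known reductase of the family, did not pass the test (-0.19, adjusted p = 0.352).

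TMEM45A, the paralogue of TMEM45B, went the other way in untreated cells. It was at 8.90 and 15.42 RPKM in AD and 0.06 and 0.24 in AI, where it fell by 4.25 (adjusted p = 2.62e-06, limma). After siEZH2 it was at 6.09 and 5.32 RPKM in AD and 3.74 and 3.39 in AI (-0.61, adjusted p = 0.0483), a call that was lost after quantile normalization, where the value was 0.05 (adjusted p = 0.895). It was lost as well after median ratio scaling (-0.11, adjusted p = 0.727) and without mitochondrially encoded genes (-0.59, adjusted p = 0.133).

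Of 4 reported partners of HTATIP2, 1 was called lower and 0 higher after siEZH2, against 47.1% and 10.6% of all genes, with a median of -0.42. NCOA5, a nuclear receptor coactivator, was at 12.49 and 12.18 RPKM in AD and 0.76 and 1.07 in AI, and fell by 3.19 (adjusted p = 3.40e-07, limma). In untreated cells it was at 27.60 and 30.05 in AD and 30.71 and 32.77 in AI (0.14, adjusted p = 0.491). KPNB1, an importin, was at -0.27 (adjusted p = 0.174), SH3GLB1 at -0.24 (adjusted p = 0.128) and ACSL4 at -0.57 (adjusted p = 0.0885), none past the threshold. SH3GLB1 turned to 0.40 with a call after quantile normalization (adjusted p = 0.0334), and KPNB1 and SH3GLB1 were at 0.28 and 0.27 without a call after median ratio scaling.

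A list of 23 genes reported as silenced by promoter methylation in prostate cancer gave 7 genes tested. Of these, 1 was called higher and 3 lower after siEZH2, against 10.6% and 47.1% of all genes, with a median of 0.19 against -0.48 for all genes. The counts were 3 and 2 after quantile normalization, where APC (0.78, adjusted p = 0.0158) and RARB (0.89, adjusted p = 0.0262) were called higher, and 1 and 2 after median ratio scaling. RASSF1, a tumour suppressor of the Ras association family, was at 25.79 and 24.23 RPKM in AD and 83.08 and 83.44 in AI, a rise of 1.72 (adjusted p = 2.67e-06, limma). SFN, which encodes the cell cycle inhibitor 14-3-3 sigma, fell by 3.19 (adjusted p = 5.06e-06, limma). It was at 13.72 and 11.55 in AD and 1.36 and 0.60 in AI. In untreated cells SFN went the other way, with 0.52 and 0.58 RPKM in AD and 3.11 and 2.22 in AI (1.58, adjusted p = 0.000965, limma). RASSF1 did not pass the test in untreated cells (-0.02, adjusted p = 0.918, limma). DKK3, a secreted protein of the Dickkopf family, fell by 1.23 after siEZH2 (adjusted p = 0.000357, limma). Its levels were 0.73 and 0.80 RPKM in AD and 0.04 and 0.04 in AI, so low that the added 0.5 largely sets the difference. TNFRSF10C, a decoy receptor for TRAIL, fell by 0.90 (adjusted p = 0.0199), with 0.337 after quantile normalization and 0.295 after median ratio scaling. GSTP1, the best known gene of this kind in prostate cancer, reached at most 0.23 RPKM in any library and did not pass the filter. HTATIP2 and CYB5R2 were not members of this list.

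After siEZH2 the nearest tested neighbour of each of the 3 genes was called lower in AI, as were 47.1% of all genes, and PRMT3 lost its call after quantile normalization. NFRKB, a subunit of the INO80 chromatin remodelling complex, lies 3633 bases from TMEM45B. After siEZH2 it was at 8.40 and 7.66 RPKM in AD and 2.27 and 2.18 in AI, and fell by 1.65 (adjusted p = 4.20e-06, limma). Its change was -0.92 after quantile normalization and -1.15 after median ratio scaling.

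PRMT3, an arginine methyltransferase, lies 3934 bases from HTATIP2 on the same strand. It was at 4.84 and 4.67 RPKM in AD and 1.93 and 2.10 in AI after siEZH2, and fell by 1.06 (adjusted p = 0.000169, limma; -0.32 with adjusted p = 0.0806 after quantile normalization). In untreated cells PRMT3 was at 3.98 and 4.66 in AD and 9.94 and 10.51 in AI, a rise of 1.16 (adjusted p = 0.000318). Its siEZH2 difference minus its untreated difference was -2.22 (adjusted p = 2.74e-05), in a test that 53.0% of all genes passed. After mock siRNA its change was -0.39 (adjusted p = 0.0388), which turned to 0.21 after quantile normalization and 0.02 after median ratio scaling.

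PPFIBP2, a liprin family scaffold protein, lies on the opposite strand and overlaps CYB5R2 by 2210 bases. After siEZH2 it was at 12.81 and 13.25 RPKM in AD and 6.42 and 4.16 in AI, and fell by 1.25 (adjusted p = 0.000497, limma; -0.65 after quantile normalization and -0.73 after median ratio scaling). In untreated cells it was at 14.99 and 12.15 in AD and 17.21 and 13.43 in AI (0.17, adjusted p = 0.568). Whether the authors' counting used strand is not given in the sources used here, so reads in the shared bases cannot be assigned to either gene.

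Within 200 kb of TMEM45B, 7 further genes are annotated, of which 5 were in the table and 4 tested. PRDM10 was at 0.42 (adjusted p = 0.169) and PRDM10-DT at -0.14 (adjusted p = 0.674) after siEZH2. PRDM10 was called higher after quantile normalization (1.11, adjusted p = 0.0048) and median ratio scaling (0.82, adjusted p = 0.0192). ELOBP2, a pseudogene whose reads may come from its parent gene, was at 0 to 0.24 RPKM in AD and 0.75 to 1.08 in AI (1.21, adjusted p = 0.00445). Of 5 annotated genes around HTATIP2 and 17 around CYB5R2, 1 each was tested, the 2 neighbours described above.

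**Figure D3:**
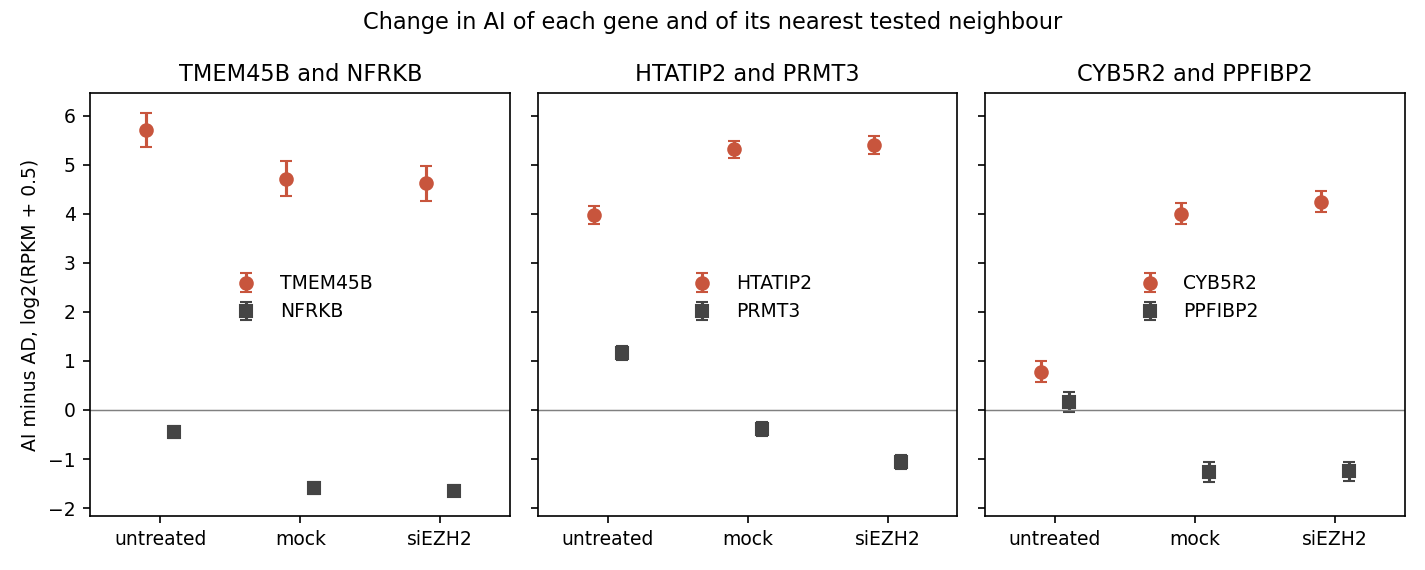
AI minus AD on the log2(RPKM + 0.5) scale, with bars of 1 SE, for each gene (circles) and its nearest tested neighbour (squares) in untreated, mock and siEZH2 cells. After siEZH2 the 3 genes are at 4.25 to 5.40 and their neighbours at -1.65 to -1.06; the mock value of PRMT3 turned from -0.39 to 0.21 and 0.02 under quantile normalization and median ratio scaling, and the untreated value of PPFIBP2 from 0.17 to -0.01 under both.

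Across the 12 RNA-seq libraries the log2(RPKM + 0.5) values of HTATIP2 correlated with those of TMEM45B at r = 0.906 and with those of CYB5R2 at r = 0.896, and TMEM45B with CYB5R2 at r = 0.632. These points share cell state and transfection, so the values are descriptions only. The gene most like TMEM45B was CLU, which encodes the secreted chaperone clusterin (r = 0.983), with group means of 0.01 and 4.05 RPKM in untreated AD and AI cells and 0.04 and 2.33 after siEZH2. Others with high values were PSAT1 (r = 0.975), an enzyme of serine synthesis, C8orf33 (r = 0.965) and MYL12B (r = 0.963).

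HTATIP2 was most like KLF6 (r = 0.994), a zinc finger transcription factor, with group means of 0.76 and 4.73 RPKM in untreated AD and AI cells and 0.94 and 7.28 after siEZH2. PTGR1 (r = 0.978), a prostaglandin reductase, ASNS (r = 0.977), asparagine synthetase, MCFD2 (r = 0.974) and TTR (r = 0.970) came next. CYB5R2 was most like CDC20 (r = 0.993), an activator of the anaphase-promoting complex, with group means of 10.9 and 12.4 RPKM in untreated AD and AI cells and 10.5 and 55.3 after siEZH2. HVCN1 (r = 0.992), INSIG1 (r = 0.991), a sterol-regulated membrane protein, SLC3A2 (r = 0.989), an amino acid transporter subunit, and CASZ1 (r = 0.988) followed. The genes like CYB5R2 were thus those with small untreated and large transfected differences, and the sets named for the 3 genes had no gene in common.

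By size alone, 3 of the 14227 genes had an AI minus AD difference of 3 or more on the log2(RPKM + 0.5) scale both untreated and after mock, namely TMEM45B, PTGR1 and HTATIP2. This is a description, since the same values chose TMEM45B and HTATIP2. CYB5R2 was outside this class with its untreated value of 0.78. PTGR1 had differences of 5.59 untreated, 5.98 after mock and 5.80 after siEZH2 (adjusted p = 1.15e-07, limma), the last larger than those of the 3 genes.

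In the RIP libraries TMEM45B RNA was found in AI cells with either antibody. With the EZH2 antibody it was at 0.10 and 0.34 RPKM in AD and 11.64 and 30.58 in AI. With IgG it was at 0 and 1.72 in AD and 18.21 and 19.60 in AI. The AI values thus lay above the AD values with both antibodies, and the EZH2 and IgG values of AI cells overlapped. By the depth estimates 1 read can be worth up to 10.6 RPKM in the second AI IgG library and 2.32 in the first AD one. The IgG value of 19.60 can thus rest on about 2 reads, and the separation of AI from AD with IgG was not tested.

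HTATIP2 was at 0 RPKM in both AD libraries with the EZH2 antibody and at 0.57 and 0.78 in AI. With IgG it was at 1.20 and 0 in AD and 0 and 5.50 in AI. The most that 1 read can be worth was set by the lowest positive value of the gene once scaled by the depth estimates. That bound was 1.20 RPKM in the first of those IgG libraries and 5.50 in the second, where the value itself set it. A single read is thus possible for either value but is not shown. CYB5R2 was at 0 in both AD libraries with the EZH2 antibody, at 0.07 and 0.47 in AI, and at 0 in all 4 IgG libraries, and it did not pass the filter of 0.5 RPKM in at least 2 libraries. With 2 of the 3 genes tested, no count of members is drawn from the RIP table.

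The IgG libraries were shallow: the estimate was 0.366 and 1.85 M reads for the AD libraries, 0.608 and 0.08 M for those of AI, against 4.59 to 8.11 M with the EZH2 antibody. Replicate correlations across genes were 0.885 and 0.861 with the EZH2 antibody and 0.660 and 0.557 with IgG, in AD and AI. In AI cells EZH2 minus IgG was 0.00 for TMEM45B (95% interval -1.96 to 1.96, adjusted p = 1, limma) and -0.57 for HTATIP2 (-2.98 to 1.85, adjusted p = 0.780). The HTATIP2 value was 1.23 without the IgG library of AI replicate 2 and -2.36 without that of replicate 1. In AD cells it was -0.57 for TMEM45B (-2.53 to 1.39, adjusted p = 0.876) and -0.88 for HTATIP2 (-3.30 to 1.53, adjusted p = 0.837). None of the genes tested was called by limma in either state (0.0%), with 2930 in AI and 1383 in AD at an unadjusted p under 0.05. In AI cells 733 genes were called without the IgG library of replicate 1. The intervals for both genes reach well over 1 in each direction, so an enrichment within them was not detectable at this depth.

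EZH2 RIP in AI minus AD was 4.77 for TMEM45B (SE 0.873, 95% interval 2.82 to 6.73), the largest of 13667 genes, with an unadjusted p of 0.000327 and an adjusted p of 1 (limma). For HTATIP2 it was 1.23 (SE 1.08, adjusted p = 1). No gene was called (0.0%), with 233 at an unadjusted p under 0.05, and both AI libraries lay above both AD libraries for 13.8% of all genes. For TMEM45B the difference was close in size to that of RNA-seq, which was 4.62 to 5.71. The enrichment over IgG in AI minus that in AD was 0.57 for TMEM45B (-2.20 to 3.34) and 0.32 for HTATIP2 (-3.10 to 3.73), with an adjusted p of 0.9999 for each. No gene was called there (0.0%), with 436 at an unadjusted p under 0.05.

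**Figure D4:**
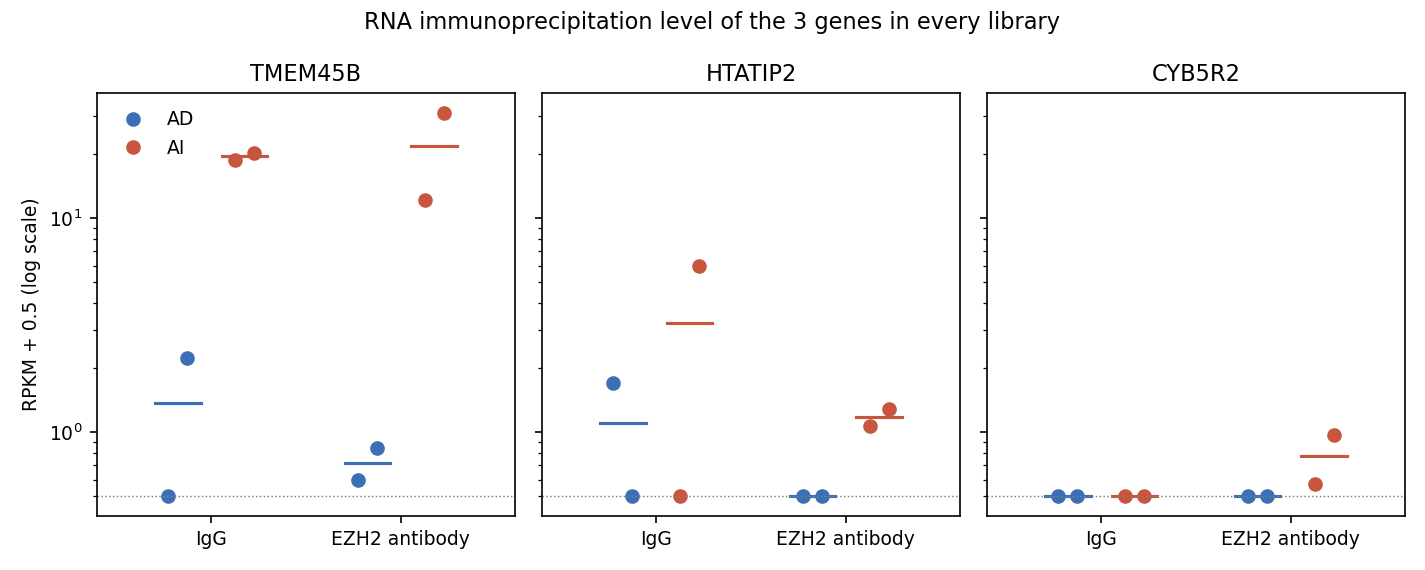
RIP level (RPKM + 0.5, log axis) of the 3 genes with IgG and with the EZH2 antibody; points are libraries, horizontal lines the group means, and the dotted line marks 0 RPKM. TMEM45B in AI cells is at 18.21 and 19.60 RPKM with IgG and at 11.64 and 30.58 with the EZH2 antibody.

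H3K27me3 peaks overlapped the gene spans in 1 of 12 pairs of list and gene, a share near that of all genes. No peak overlapped TMEM45B or HTATIP2 in any of the 4 lists. CYB5R2 had no peak in either AD list or in the first AI list, and in the second AI list 1 peak of 1858 bases (chr11:7673026-7674883) covered 13.5% of the gene. The peak also reaches over the printed window before the gene start and holds the internal window with 32 CG. The authors' score of that peak was 171, at the 56.6th percentile of its list. Of 12750 genes with a span, 7.69% and 8.46% had a peak in the 2 AD lists and 9.82% and 13.9% in the 2 AI lists. The 1 pair with a peak was in a cell state in which CYB5R2 RNA was at 0.37 to 0.64 RPKM untreated and 9.31 to 11.41 after transfection. With 2 samples a group, an exact permutation test of a peak's presence cannot reach 0.05, and none was run.

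The surroundings of the genes differed more than the spans. Around HTATIP2, from 200 kb before to 200 kb after the gene, H3K27me3 peaks covered 21.3% and 11.9% of the bases in AD and 22.2% and 21.7% in AI. The medians over genes were 0.886% and 1.25% in AD and 1.68% and 1.90% in AI, and the 90th percentiles 10.4%, 11.6%, 13.3% and 12.7%, so 4 of 4 HTATIP2 values lay above the 90th percentile of their list. The nearest peak was 5.42 and 24.6 kb upstream of the gene in AD and 5.31 and 5.35 kb upstream in AI. HTATIP2 thus lay beside a long marked stretch in both cell states.

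Around CYB5R2, peaks covered 3.12% and 1.02% in AD and 9.30% and 8.84% in AI, or 12.8 and 4.16 kb against 38.1 and 36.2 kb. Both AI values lay above both AD values, as they did for 31.7% of all genes, and the nearest peak was 23.8 and 23.5 kb upstream in AD and 7.56 and 0 kb in AI. Around TMEM45B coverage was 0.399% and 1.14% in AD and 1.18% and 0% in AI, and the groups overlapped. The lists themselves differ in size, from 70744 to 123979 peaks, and cover 184 to 229 megabases. Each list was called separately, and the share of a difference that comes from calling was not tested.

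EZH2 peaks overlapped HTATIP2 in both AD lists. The first AD list had 1 of 426 bases (chr11:20380047-20380472, score 63.8) and the second 1 of 414 bases (chr11:20383053-20383466, score 55.3). They do not overlap each other. The AI list had none over the span, and its nearest peak (chr11:20362590-20363124, score 63.3) ended 590 bases before the gene start. TMEM45B and CYB5R2 had none in any of the 3 lists, and their nearest EZH2 peaks were 8.44 to 20.4 kb and 9.10 to 35.5 kb away. Peaks overlapped 48.6% and 23.7% of all genes in the 2 AD lists and 21.5% in the AI list, and the lists hold 53767, 12360 and 11897 peaks. The difference between AD and AI was not tested, since AI has 1 sample.

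**Figure D5:**
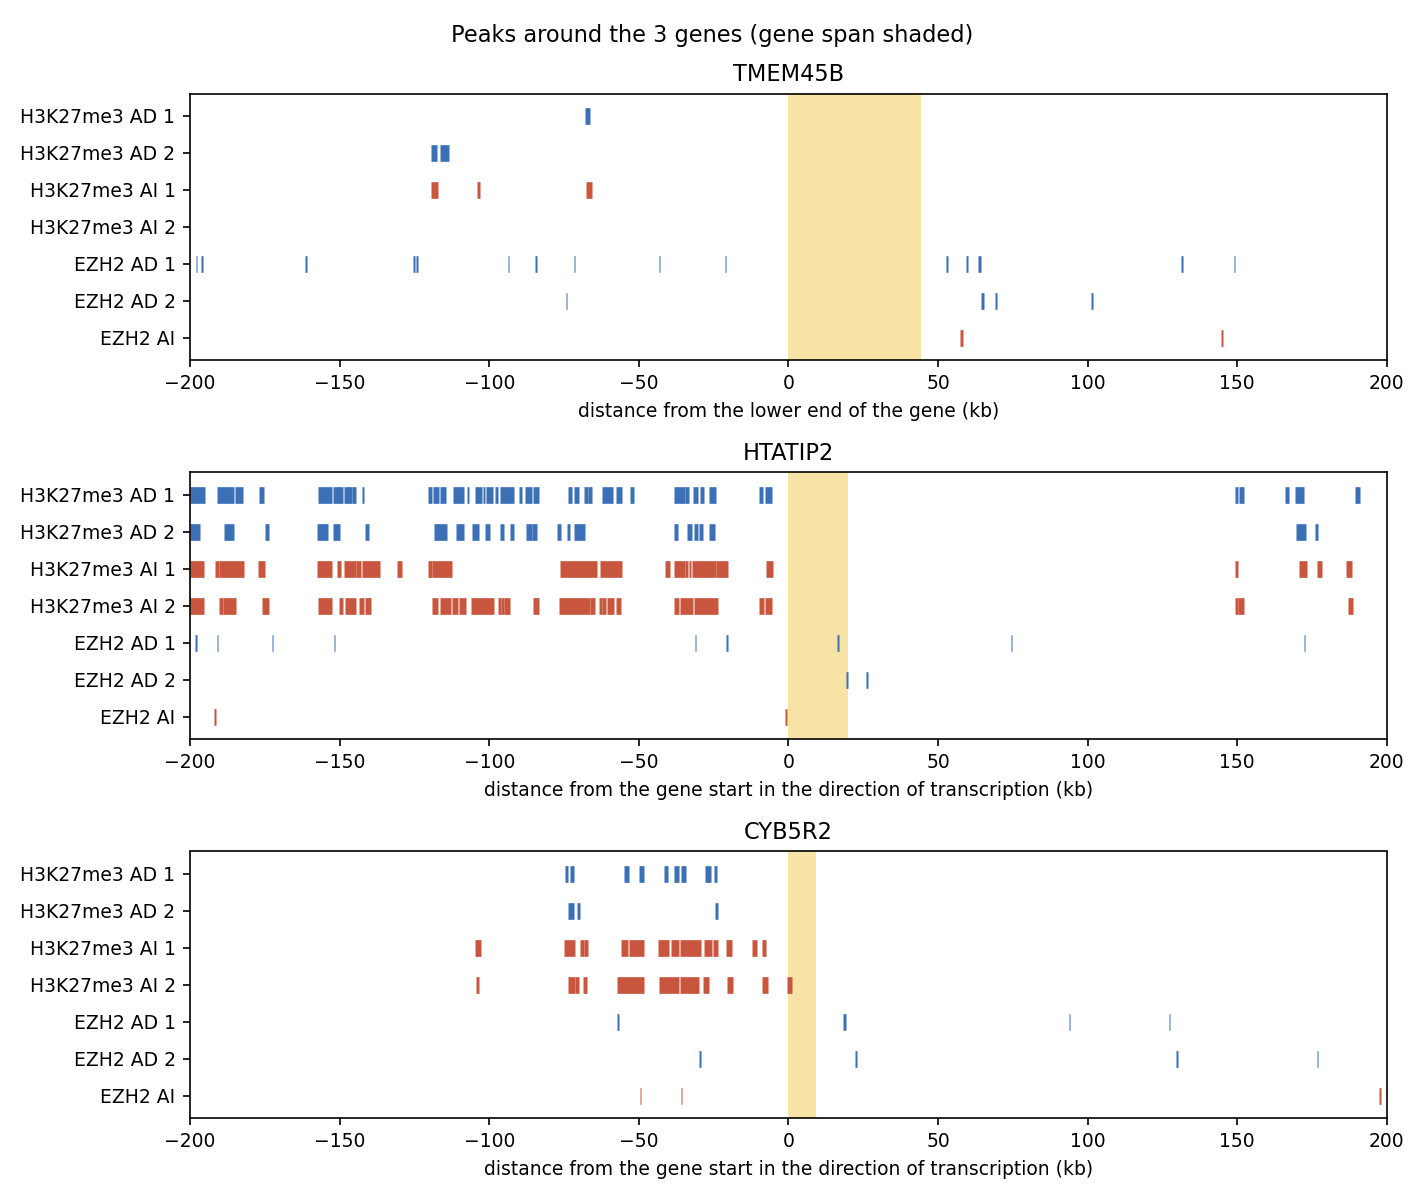
Peaks (vertical bars) of the 7 lists around each gene, by distance in kb from the gene start in the direction of transcription (from the lower end for TMEM45B); the shaded box is the gene span. H3K27me3 peaks stand densely upstream of HTATIP2 in AD and AI, and nearer to CYB5R2 in AI (7.56 and 0 kb) than in AD (23.8 and 23.5 kb).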

How the data were processed

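The authors deposited RPKM values for RNA-seq (12 libraries, 28071 genes) and RIP (8 libraries, 25035 genes), and peak lists with a score per peak. Per the submitters' processing notes, RNA-seq and RIP were processed with TopHat2 and edgeR (RNA-seq also with cutadapt) and ChIP with cutadapt and Bowtie2, on the build GRCh38; peak names have the form MACS writes. The sources used here do not state the annotation release, the counting or its strand use. The deposited peak score is the authors' own and is at least 50 in every list; it was used to rank and filter peaks within a list. The 7 input samples were not analysed.

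The 3 genes and all gene lists were chosen with earlier results of these data known. Genes were matched by Ensembl identifier. RPKM was tested as log2(RPKM + 0.5) with limma 3.58.1 (trend, 1 coefficient per group over all libraries of a table, Benjamini-Hochberg over all genes tested, threshold 0.05) in R 4.3.3, on genes reaching 0.5 RPKM in 2 or more libraries (14227 of the RNA-seq table, 13667 of the RIP table). Differences on this scale understate those of low genes. No count test was run, since the files hold RPKM. The fit was tested on simulated data with 50 changed genes per size. For siEZH2 AI minus AD it recovered 64% of log2 changes of 1 and 100% of those of 3. For EZH2 minus IgG in AI it recovered 0% of log2 changes of 2 and 16% of those of 4, so the absence of calls there says little. Depth was estimated from the steps between low values of short genes with RefSeq lengths, taking values within 3% of 1 read as whole, and is approximate. The most that 1 read of a gene can be worth came from its lowest positive value times depth over all libraries. Peaks counted as over a gene with at least 1 shared base with its RefSeq GRCh38.p14 span. Replicate numbers come from the titles. Named genes are the 3 genes, EZH2, the 5 genes with a mean of at least 1 RPKM most correlated with each, tested genes within 200 kb, and up to 4 called genes per list; CYB5R3, GSTP1 and list members that were not called were added after their values were seen. Some items that these rules select are not reported here. Alternatives were pseudocounts 0.1 and 1, other filters, quantile normalization, median ratio scaling, rescaling without mitochondrially encoded genes, fits on only the groups compared, each library left out, a replicate block, and for peaks a score of at least 100, overlap of at least 0.5 of the peak, 5 kb added and 2 kb at the start. Promoter sequences are from RefSeq and 2 of the 3 genes had an entry.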

Additional observations from a re-analysis of the deposited data

Results flagged for a closer look

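For 12 genes other than the 3, AI minus AD differed between siEZH2 and untreated cells (limma test of that difference, adjusted p under 0.05). The genes examined were EZH2, the tested neighbours, and genes of the 4 lists already called in AI minus AD after siEZH2. That call is part of the tested difference. The same test was passed by 53.0% of all 14227 genes, which were not chosen in that way, so the 2 are not alike. Values are on the log2(RPKM + 0.5) scale, siEZH2 minus untreated. Among the neighbours, PRMT3 differed by -2.22 (adjusted p = 2.74e-05), NFRKB by -1.20 (adjusted p = 0.000296) and PPFIBP2 by -1.42 (adjusted p = 0.00221). After quantile normalization and median ratio scaling PRMT3 was at -1.37 and -1.57, NFRKB at -0.26 (adjusted p = 0.29) and -0.53, and PPFIBP2 at -0.64 (adjusted p = 0.078) and -0.72 (adjusted p = 0.061). EZH2 differed by -2.24 (adjusted p = 0.000102), with AI minus AD at 0.86 untreated, -0.86 after mock and -1.38 after siEZH2. In the cytochrome b5 list CYB5A differed by 1.02, CYB5R1 by -1.17 and CYB5D2 by -1.51. The latter 2 no longer passed after quantile normalization (adjusted p = 0.105 and 0.0959) or median ratio scaling (adjusted p = 0.262 and 0.0915). TMEM45A differed by 3.64 and NCOA5 by -3.33, whose AI minus AD difference was already -3.09 after mock. Of the genes reported as methylated in prostate cancer, RASSF1 differed by 1.74, SFN by -4.77 and DKK3 by -1.29. AI minus AD after mock was already -2.40 for SFN, 1.55 for RASSF1 and -1.67 for DKK3. It was 1.13 for CYB5A, -1.35 for CYB5R1, -0.91 for CYB5D2 and -0.49 for TMEM45A. Among the neighbours it was -1.59 for NFRKB, -1.27 for PPFIBP2 and -0.39 for PRMT3. None of the list genes was called in siEZH2 minus mock. The values above thus set transfected against untreated cells and do not isolate siEZH2. Untreated and transfected libraries differ in depth and mitochondrial share, whose part in these values was not tested.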

How the results depend on the processing

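In siEZH2 cells the 3 genes were called higher in AI under each of 13 alternatives, and in no other tested comparison was any of the 3 called under any alternative. For all genes, the calls in siEZH2 AI minus AD ranged from 6612 to 8921, untreated from 1758 to 5235 (1758 with only the groups compared, against 4922) and mock from 6466 to 8826. Calls for siEZH2 minus mock ranged from 0 to 1204 in AI (208 in the main analysis, 305 with a pseudocount of 0.1, 1204 with only the groups compared, 0 without mitochondrially encoded genes) and from 0 to 45 in AD (2 in the main analysis, 45 with no filter). The share of higher calls moved from 64.2% to 50.2% and 46% in untreated cells and from 21.9% to 48.5% and 46.8% after mock, with quantile normalization and median ratio scaling.

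The descriptive values moved with the pseudocount. With 0.1 and 1 added, AI minus AD was 6.22 and 3.07 for HTATIP2 and 1.71 and 0.47 for CYB5R2 untreated, and 7.14 and 4.43 for HTATIP2 and 5.35 and 3.25 for CYB5R2 after mock. Peaks of H3K27me3 over the 3 genes numbered 1 of 12 list-gene pairs, and 0 without the second AI list (0 to 1 over lists left out). EZH2 peaks numbered 2 of 9, 0 with a score of at least 100, 1 within 2 kb of the start, and 1 without either AD list. The cause was not tested.

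Same-numbered replicates correlated in their deviations at 0.009 for siEZH2 AI and AD, 0.021 and 0.014 for siEZH2 and mock, 0.701 untreated, 0.713 for EZH2 RIP, and 0.24 and 0.332 for EZH2 and IgG in AI and AD. With 2 pairs a comparison, the numbers do not establish pairing. With the replicate block, 3 of the 3 genes were called after siEZH2, and calls over all genes were 8453 (8206 without), 371 (208) for siEZH2 minus mock in AI, 0 (2) in AD, 1338 (0) for EZH2 minus IgG in AI and 483 (0) in AD. Depth limits the IgG libraries most: at an estimated 0.08 M reads (M, mega), 1 read of TMEM45B can be worth up to 10.6 RPKM.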
